A study of Mus musculus with 30 samples.

Results

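The Zfp genes are the mouse genes whose symbol is Zfp followed by a number, most of them coding for proteins with zinc fingers, small zinc-held folds that bind DNA or, in some members, RNA or other proteins. Members were the Zfp genes, Zfp42 left out, with at least 1 called bin of N6-methyladenosine (m6A) in at least 1 of the 3 lists of the wild-type line. They were 225 of the 10290 genes with a bin in a wild-type list, and of the 403 Zfp symbols in the gene name table. Because calls in the wild type chose the members, their wild-type values are a description and were not tested.

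The lists came from mouse embryonic stem cells of the C57BL/6 strain, grown with serum and leukemia inhibitory factor. All lines but 1 carry a knockout of Mettl14, which codes for the RNA-binding partner of the methyltransferase METTL3. The lines were the wild type (WT), the knockout without METTL14 (KO), and 3 lines in which the knockout expresses METTL14 again. In these METTL14 is either wild type (KO+WT) or 1 of the variants that the labels call 5RK and 13RK (KO+5RK and KO+13RK). By the series title the study concerns arginine methylation of the disordered C-terminus of METTL14. The lines that express METTL14 again are called the rescue lines below. The labels do not say whether a line is a single clone, which promoter drives the METTL14 put back, or whether the 3 replicates of a line were separate cultures, so all p-values measure the spread between these lists, which may be technical.

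m6A is the most common internal mark of messenger RNA. The METTL3 and METTL14 complex places it, mostly in long internal exons and around stop codons, and reader proteins that bind it can shorten the life of the transcript. Many Zfp genes are KRAB zinc finger genes, which arose by duplication in clusters. Their proteins bind retroelements and imprinted regions and recruit the co-repressor TRIM28 and the histone methyltransferase SETDB1. The long last exon of such a gene usually codes for the whole array of zinc fingers. Of the members, 54 lay on chromosome 7, 23 on chromosome 17 and 19 on chromosome 13.

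Each list gives bins of 100 nt that passed the authors' call in RNA immunoprecipitated with an m6A antibody, so the value used here is the number of called bins in a gene. A list held between 6328 bins (KO replicate 1) and 23164 bins (WT replicate 1), and the 3 KO lists were the shortest. Read depth is unknown and RNA levels in the input libraries were not analysed here, so a missing bin is a missing call, and less m6A cannot be told apart from less RNA. No list was a copy of another. Of the 9 stem cell markers with a bin, 7 were called in all 3 WT lists, among them Sox2, Nanog and Esrrb, while Pou5f1 and Utf1 had no bin there. The fibroblast gene Fn1 had 30, 23 and 23 bins in the WT lists and 0 to 3 in the others, and its part in the results was not tested. The other fibroblast or differentiated markers did not follow it. Col1a1 and Vim had 0 or 1 bins in each WT list and Thy1 had none there. Col1a2, Col3a1 and Acta2 had no bin in any list. Mettl14 itself had no bin in the KO lists but none in the WT lists either, so its calls do not check the labels.

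Fewer of the knockout's calls fell in Zfp genes than in any other line. The members held 494, 478 and 471 bins in the 3 WT lists and 89, 130 and 113 in the KO lists. They held 284, 398 and 311 bins in KO+WT, 253, 265 and 195 in KO+5RK, and 173, 184 and 232 in KO+13RK. Every KO list was below every other list, and KO+WT stayed below WT. The KO mean of 111 ± 20.6 bins (SD, n = 3) was 43.4% of the mean of the rescue lines, against 59.7% for the 10065 other genes with a bin in a WT list. Against KO+WT alone (331 ± 59.6 bins) it was 33.4% for the members and 48.9% for the other genes.

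**Figure D1:**
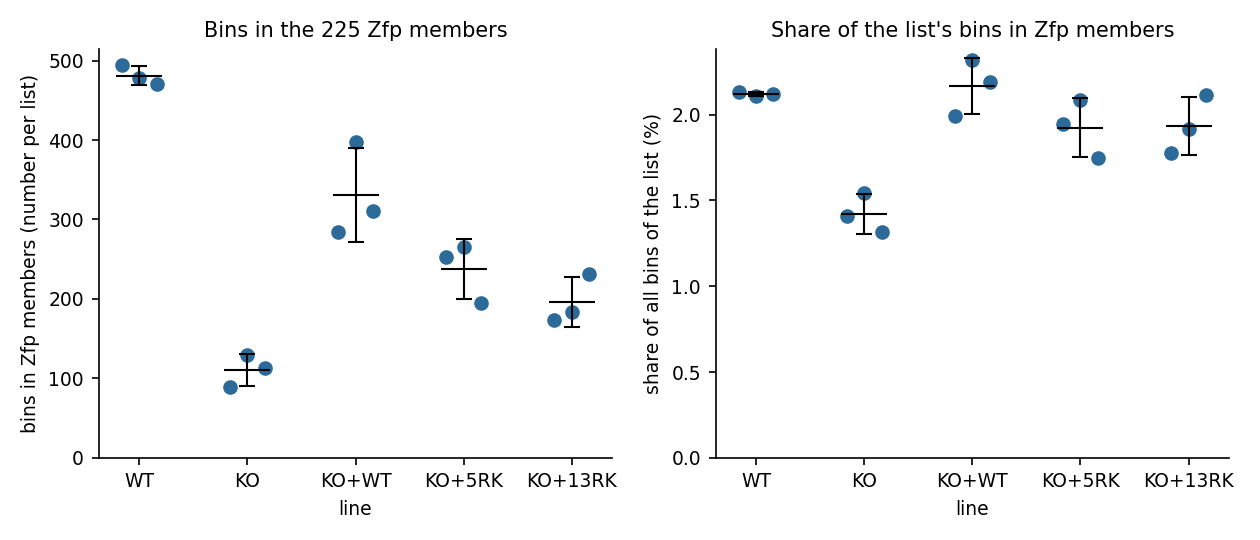
Bins in the 225 Zfp members (left, number per list) and the share of all bins of the list that lay in them (right, %), for the 3 lists of each line; points are lists, the horizontal bar is the mean and the error bar the SD. The 3 KO lists, at 89 to 130 bins and 1.32% to 1.55%, lie below the lists of every other line in both panels.

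As a share of all bins of a list, the members held 1.41%, 1.55% and 1.32% in KO. The share was 2.12% ± 0.012 (SD, n = 3 in each line) for WT and 2.17% ± 0.163 for KO+WT. For the variant lines it was 1.92% ± 0.171 (KO+5RK) and 1.94% ± 0.170 (KO+13RK). The rescue lines overlapped each other, KO+WT and KO+13RK also overlapped WT, all KO+5RK lists were below WT, and the lowest list outside KO stood at 1.75%. With only the 6328 bins of smallest p in each list, KO (1.41% to 1.53%) was still below all rescue lists (1.71% to 2.01%), but WT, at 1.28% to 1.55%, overlapped it. With a q of at most 0.005, KO (1.16% to 1.46%) lay below WT (1.745% to 1.89%). KO was thus below WT except when all lists were cut to equal length, and below the rescue lines also then.

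The fall was made of fewer members with any bin and of fewer bins in each. Members with a bin numbered 164 ± 6.25 in WT and 68.3 ± 11.2 in KO. KO+WT had 131 ± 14.5 of them, KO+5RK 113 ± 10.5 and KO+13RK 99.7 ± 9.50. A called member had a mean of 1.62 bins in KO, 2.52 with wild-type METTL14 put back and 2.94 in WT. For the other genes these means were 1.88, 2.44 and 2.89, so called members had fewer bins than other called genes in KO and more in KO+WT. Within a list, the bins of members ranked slightly above the middle of the authors' enrichment value in all lines, with a median percentile of 57.9 in KO and 54.6 in KO+WT.

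The same values were computed for other zinc finger families chosen by the same rule. The 29 Zbtb genes, in which zinc fingers are joined to a BTB domain, stood at 40.4% of the rescue mean in KO, close to the Zfp members. The 14 Zc3h genes, whose fingers bind RNA, stood at 49.5%, and the 13 Zscan and Zkscan genes at 93.0%. That last value compares only 10.3 with 11.1 bins per list, and the differences between families were not tested.

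The knockout was then compared with the rescue lines gene by gene, by limma on log2(bins per gene + 1) over the 9852 genes with a bin in at least 3 lists, of which 194 were members. The 194 include members that reached 3 lists through WT. At a Benjamini-Hochberg adjusted p under 0.05, 31 members (16.0%) had fewer bins in KO than in the rescue lines, beside 12.5% of all genes tested, and 1 (0.515%) had more, beside 1.73%. The median difference was -0.38 on the log2 scale in the members and -0.22 over all genes tested. Among the 8756 other tested genes with a bin in a WT list 13.5% had fewer bins, so the share of members called was near that of other genes. Without KO replicate 1 the number of members with fewer bins was 18, and without KO replicate 3 it was 19. The single member with more bins became 2 members without WT replicate 2 or 3, KO replicate 1 or 2 or KO+5RK replicate 2, and 3 members without KO+WT replicate 2 or KO+5RK replicate 1 or 3. At equal list length the split was 13 fewer and 8 more among 118 members tested, beside 11.3% and 7.75% of all genes, so the split depends on list length.

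Against KO+WT alone, 37 members (19.1%) had fewer bins in KO, beside 15% of all genes tested, and 2 (1.03%) had more, beside 1.14%. Among the 8756 other tested genes with a bin in a WT list, 16.2% had fewer bins and 0.765% had more. The difference between these genes and the members was not tested. The median difference was -0.53 in the members and -0.33 over all genes tested. This comparison shares the KO lists with the one above and is no independent count. Without KO+WT replicate 2, 24 members had fewer bins. The 2 members with more bins became 1 without KO replicate 2, KO+WT replicate 1 or any KO+13RK list, and 0 without KO replicate 3 or KO+WT replicate 2 or 3. At equal list length the split was 12 fewer and 8 more among 118 members tested, beside 10.0% and 6.55% of all genes.

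**Figure D2:**
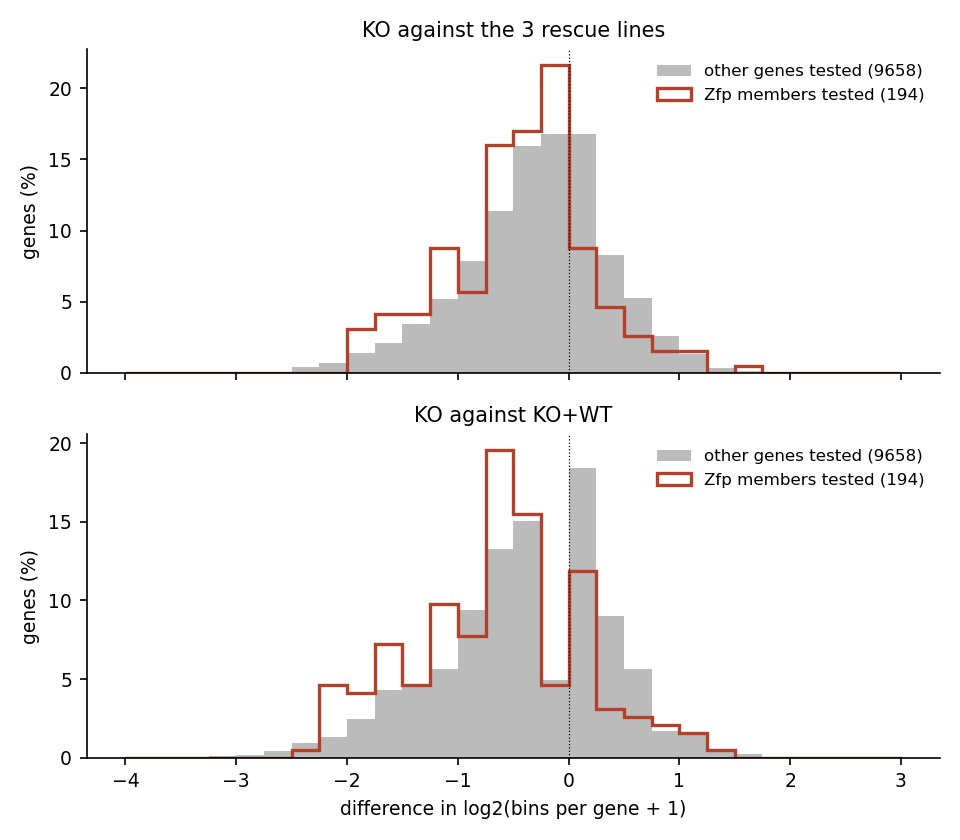
Difference in log2(bins per gene + 1) between KO and the rescue lines (top) and between KO and KO+WT (bottom) for the 194 Zfp members tested (red line) and all other genes tested (grey), as a percentage of each set. Both sets centre below 0, with medians of -0.38 and -0.22 in the top panel, and few members lie above 1.

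The clearest losses were genes called in every rescue list and in no KO list. There were 7 of these among the members, 3.11% of 225 (Zfp180, Zfp280d, Zfp472, Zfp507, Zfp664, Zfp7 and Zfp961), beside 2.44% of all genes with a bin and 3.26% of the other genes with a WT bin. Zfp280d (chromosome 9, 72274618 to 72363779, GRCm38) had 4, 4 and 4 bins in WT, none in KO, 3, 4 and 3 in KO+WT, 2, 1 and 1 in KO+5RK and 2, 1 and 1 in KO+13RK. KO did not overlap any other line, and both variant lines lay below KO+WT. Its limma difference was -1.50 ± 0.19 (SE) against the rescue lines, with an adjusted p of 0.000145. Its bins sat side by side near the end of the gene: the position 1568.5 nt from the end was missing from every KO list and was called in every list of WT, KO+WT and KO+13RK and in 2 of the 3 lists of KO+5RK.

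Zfp664 had 6, 4 and 4 bins in WT, none in KO, 4, 5 and 4 in KO+WT, 4, 1 and 1 in KO+5RK and 2, 2 and 2 in KO+13RK. Its difference against KO+WT was -2.41 ± 0.31 (SE) with an adjusted p of 0.000231 in limma. The neighbouring positions 3488.5, 3288.5, 3188.5 and 3088.5 nt from the end of Zfp664 were each called in all 3 WT and all 3 KO+WT lists. Only the position at 3188.5 nt was also called in every KO+5RK and KO+13RK list. Zfp7 had 6, 5 and 4 bins in WT, none in KO, 4, 3 and 3 in KO+WT, 3, 4 and 3 in KO+5RK and 2, 1 and 5 in KO+13RK. Unlike Zfp664, Zfp7 had as many bins in KO+5RK as in KO+WT. Its difference against the rescue lines was -1.98 ± 0.26 (SE) with an adjusted p of 0.000227 in limma. With a q of at most 0.005 or at equal list length Zfp7 no longer passed.

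Zfp266 (chromosome 9, 20495068 to 20521419, GRCm38) and Zfp260 kept a single bin in 1 KO list each. Zfp266 had 7, 6 and 5 bins in WT, 0, 0 and 1 in KO, 4, 6 and 5 in KO+WT, 3, 4 and 5 in KO+5RK and 4, 2 and 3 in KO+13RK. A member with many WT bins and few in KO was Zfp462, whose protein is a chromatin regulator with many fingers. It had 9, 14 and 12 bins in WT, 2, 0 and 0 in KO, 5, 10 and 3 in KO+WT, 5, 3 and 4 in KO+5RK and 4, 1 and 3 in KO+13RK. The KO lists of Zfp462 did not overlap KO+WT, and its difference against KO+WT was -2.15 ± 0.48 (SE) with an adjusted p of 0.00883 in limma. With a q of at most 0.005 or at equal list length Zfp462 no longer passed.

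**Figure D3:**
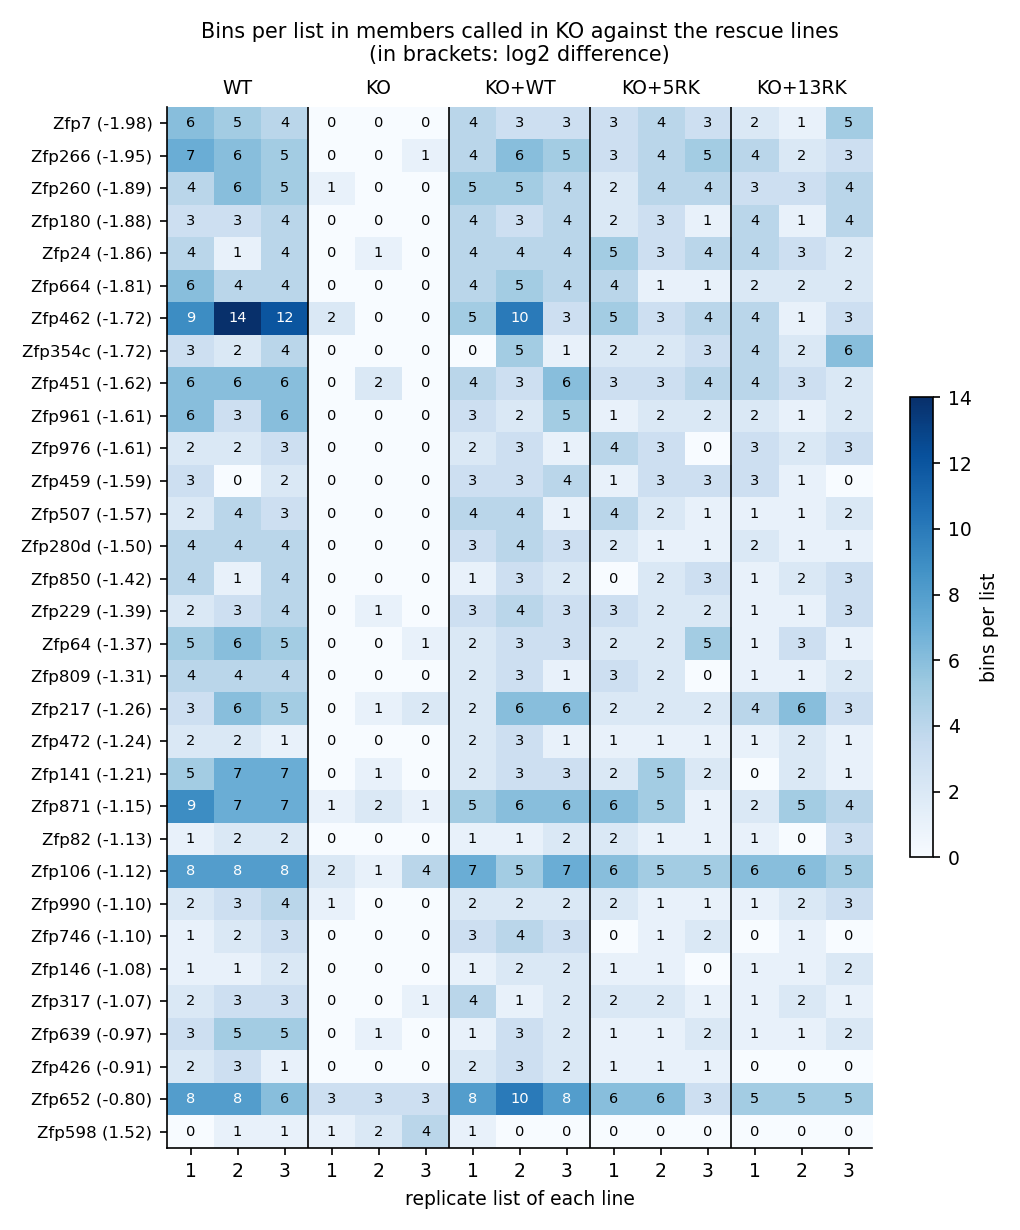
Bins per list (number in each cell, darker for more) in the 32 members that passed the test between KO and the rescue lines, ordered by the log2 difference given in brackets; columns are the 3 lists of each line. The 31 members with fewer bins in KO have at most 4 bins in any KO list, and the last, Zfp598, is the one with more bins in KO.

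In all, 23 members (10.2%, beside 7.48% of all genes and 9.77% of the other genes with a WT bin) were called in all 3 KO+WT lists but in none of KO, and 11 (4.89%, beside 3.66% and 4.89%) had fewer bins in every KO list than in every rescue list. KO lists did not overlap KO+WT lists, on the lower side, in 45 (20.0%), beside 13.2% of all genes with a bin and 17.4% of the other genes with a WT bin. On the higher side this held for 2 members, Zfp593 and Zfp799 (0.889%), beside 1.24% of all genes. Called in all 15 lists were 13 members (5.78%, beside 5.71% of all genes with a bin and 7.68% of the other genes with a WT bin): Zfp106, Zfp207, Zfp281, Zfp292, Zfp445, Zfp532, Zfp622, Zfp638, Zfp652, Zfp687, Zfp710, Zfp740 and Zfp871. A call in every list does not mean an unmoved number of bins, since Zfp106, Zfp652 and Zfp871 are among the 31 members with fewer bins in KO.

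Grouped by role, the members for imprint and retroelement control were 5, all tested, with a median difference against the rescue lines of -0.91, beside -0.22 over all genes tested. Zfp809, whose protein silences murine leukemia virus sequences in stem cells, was the only 1 of the 5 that passed. This is 20.0%, beside 12.5% of all genes tested with fewer bins and 13.5% of the other tested genes with a WT bin. Zfp809 had 4, 4 and 4 bins in WT and none in KO. It had 2, 3 and 1 in KO+WT, 3, 2 and 0 in KO+5RK and 1, 1 and 2 in KO+13RK. Its difference against the rescue lines was -1.31 ± 0.35 (SE) with a limma adjusted p of 0.0241, and leaving out any 1 of the KO lists ended that call. With a q of at most 0.005 or at equal list length Zfp809 also no longer passed. Zfp57, which guards imprinted DNA methylation, had 3 bins in each WT list, 0, 2 and 2 in KO and 2 or 3 in every rescue list, with a limma adjusted p of 0.155. Zfp445, its partner at imprinted regions, had 8, 12 and 8 bins in WT, 1, 6 and 2 in KO and 4 to 8 in the rescue lists, with a limma adjusted p of 0.0587. Zfp568, a repressor of a placental transcript of Igf2, had 4, 4 and 0 bins in KO and 2 to 9 in the rescue lists, with a limma adjusted p of 0.176. For Zfp445 and Zfp568 the KO lists overlapped the rescue lists. Zfp932 had 0, 1 and 1 bins in KO and 0 to 2 in the rescue lists, with a limma difference of -0.02.

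Of the 11 cofactor and chromatin members, all tested, 2 had fewer bins in KO than in the rescue lines (Zfp217 and Zfp462) and 5 had fewer than in KO+WT (also Zfp292, Zfp516 and Zfp644), with none higher. These are 18.2% and 45.5%, beside 12.5% and 15% of all genes tested, and the median differences were -0.82 and -1.23, beside -0.22 and -0.33. Among the other tested genes with a bin in a WT list the shares were 13.5% and 16.2%. The lists by role were chosen with earlier results of these data known, so these shares are a description without a test. At equal list length none of the 5 calls against KO+WT remained. The bins of the 11 summed to 68.3 ± 6.03 in WT and 14.3 ± 3.06 in KO (SD, n = 3 in each line). They summed to 50.3 ± 12.7 for KO+WT, 29.3 ± 6.51 for KO+5RK and 23.7 ± 4.04 for KO+13RK. No list of KO+5RK or KO+13RK reached the lowest KO+WT list of 42 bins. The same held for all other genes with a WT bin. They had at most 12166 bins in KO+5RK and 10089 in KO+13RK, and at least 13236 in KO+WT. Zfp292, a large transcription factor, had the most bins of all members in KO+WT, with 10, 11 and 8. It had 13, 12 and 12 bins in WT, 3, 1 and 4 in KO, 4, 6 and 2 in KO+5RK and 2, 3 and 6 in KO+13RK, and all 3 of these lines lay below KO+WT without overlap. Only the KO difference passed limma (-1.63 ± 0.39 SE, adjusted p = 0.0124), while the KO+5RK and KO+13RK differences had adjusted p of 0.337 and 0.146. With a q of at most 0.005 the KO difference of Zfp292 no longer passed. Some bins of Zfp644 overlapped bins given to a predicted gene on the same strand, so its count is uncertain.

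Of the 11 members for stem cell and DNA-binding regulation, 10 were tested and none passed against the rescue lines, beside 12.5% of all genes tested lower. Their median difference was -0.20, beside -0.22 over all genes tested. Against KO+WT only Zfp148 passed, a GC-box binding factor, with 2, 0 and 2 bins in KO and 6, 8 and 6 in KO+WT (limma adjusted p = 0.0118). This is 10.0% of the 10 tested, beside 15% of all genes tested with fewer bins. Among the other tested genes with a WT bin the share was 16.2%. Zfp281, a regulator of pluripotency, had 2, 2 and 1 bins in KO and 1 to 3 in every rescue list. Zfp423 had 9, 4 and 1 bins in WT and at most 1 in any other list.

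Of the 11 members that bind RNA or act in ubiquitin, SUMO or mitotic pathways, 10 were tested, 2 passed as lower (Zfp106 and Zfp451) and 1 as higher (Zfp598), both against the rescue lines and against KO+WT. The 2 lower are 20.0%, beside 12.5% and 15% of all genes tested. Among the other tested genes with a WT bin the shares were 13.5% and 16.2%. The median difference of the 10 against the rescue lines was -0.29, beside -0.22 over all genes tested. The 1 higher, of 10 tested, stands beside 1.73% and 1.14% of all genes tested. Zfp106, which binds RNA repeats, had 8 bins in each WT list, 2, 1 and 4 in KO, 7, 5 and 7 in KO+WT, 6, 5 and 5 in KO+5RK and 6, 6 and 5 in KO+13RK. Here the variant lines stayed near KO+WT, and the KO difference was -1.12 ± 0.22 (SE) with a limma adjusted p of 0.00384. Zfp598, the ubiquitin ligase of collided ribosomes, had 0, 1 and 1 bins in WT, 1, 2 and 4 in KO, 1, 0 and 0 in KO+WT and none in KO+5RK or KO+13RK. Its difference against the rescue lines was 1.52 ± 0.31 (SE) with a limma adjusted p of 0.00513. With a q of at most 0.005 Zfp598 no longer passed. The bin 1220.5 nt from its end was called in all 3 KO lists and no other, while the bin 620.5 nt from its end was called in 2 WT lists, 1 KO+WT list and no KO list.

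The co-repressor genes that KRAB zinc finger proteins work with were called about as often as all genes. Of 19 such genes 18 had a bin and 17 were tested, and 2 (11.8%, beside 12.5% of all genes tested) had fewer bins in KO than in the rescue lines, with none higher. These were Trim28, with 19, 18 and 18 bins in WT, 5, 9 and 4 in KO and 13 to 27 in the rescue lists (-1.32 ± 0.23 SE, limma adjusted p = 0.00182), and Smarcad1, a chromatin remodeller (-1.31 ± 0.31 SE, limma adjusted p = 0.0113). Setdb1 had 1, 2 and 2 bins in KO and 1 to 4 in the rescue lists. The 17 tested co-repressor genes had a median difference of 0 against the rescue lines, beside -0.22 over all genes tested. The difference between these genes and the members was not tested.

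The 5RK variant was compared with wild-type METTL14 in the same background. Zfp members had 71.8% as many bins in KO+5RK as in KO+WT, against 80.4% for the other genes. No member passed the limma test, beside 0.213% of all genes lower and 0.0508% higher. At an unadjusted p under 0.05 in limma, 18 members were lower (9.28%, beside 7.63% of all genes tested) and 3 higher (1.55%, beside 2.24%). Fisher's exact test on lists with a bin could call no gene, since 3 lists against 3 cannot go below a p of 0.1. With 1 list left out the count of members with fewer bins was 1 (without WT replicate 1 or KO+5RK replicate 1) or 2 (without KO+WT replicate 1). In 8 members (3.56%, beside 2.82% of all genes and 3.63% of the other genes with a WT bin) every KO+5RK list had fewer bins than every KO+WT list: Zfp148, Zfp280d, Zfp292, Zfp426, Zfp516, Zfp652, Zfp746 and Zfp865.

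For the 13RK variant the members had 59.3% as many bins as in KO+WT, against 65.5% for the other genes. For 3 members, 1.55% of those tested, there were fewer bins (Zfp426, Zfp704 and Zfp808), beside 1.12% of all genes, and 0 had more, beside 0.0609%. At an unadjusted p under 0.05, 31 members were lower in limma (16.0%, beside 13.4% of all genes tested) and 1 was higher (0.515%, beside 1.79%). Zfp426 had 2, 3 and 2 bins in KO+WT, 1, 1 and 1 in KO+5RK and none in KO+13RK or KO, with a difference between KO+13RK and KO+WT of -1.72 ± 0.25 (SE) and a limma adjusted p of 0.0082. The order KO+WT, KO+5RK, KO+13RK held in Zfp426 without overlap of the lists. Zfp704 had 2, 4 and 4 bins in KO+WT, 4, 2 and 2 in KO+5RK, 0, 1 and 0 in KO+13RK and 2, 2 and 3 in KO, so it was lower in KO+13RK than in the knockout itself. Zfp808 had 3, 5 and 4 bins in KO+WT, 3, 1 and 2 in KO+5RK, 0, 1 and 1 in KO+13RK and 2 in each KO list.

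Of the 3 calls that of Zfp426 remained whichever list was left out. All 3 calls were lost with a q of at most 0.005 and at equal list length. With that q, 4 other members of 126 tested were lower in KO+13RK than in KO+WT, beside 2.88% of all genes tested. Zfp704 lost its call without KO+WT replicate 2 or 3 or KO+13RK replicate 1 or 3, and Zfp808 without KO+WT replicate 2 or 3 or KO+13RK replicate 1. The count was 1 without KO+WT replicate 2 and 6 without KO+5RK replicate 3. The replicate number as a block left 1 of the 3 calls. In 18 members (8%, beside 5.51% of all genes and 7.11% of the other genes with a WT bin) the KO+13RK lists all lay below the KO+WT lists. Called in all 3 lists of KO+WT but in none of KO+13RK were 6 members (2.67%, beside 2.09% and 2.59%): Zfp41, Zfp426, Zfp599, Zfp606, Zfp865 and Zfp977. Zfp865 had 1, 5 and 3 bins in KO+WT and none in KO, KO+5RK or KO+13RK, but some of its bins overlap bins given to Ccdc106 on the same strand. Both variants share the KO+WT lists as controls. Compared directly, 0 members passed limma between KO+13RK and KO+5RK, beside 0.193% of all genes lower and 0.0203% higher. In limma at an unadjusted p under 0.05, 15 were lower (7.73%, beside 6.21%) and 2 higher (1.03%, beside 2.32%). Fisher's exact test could not call any member here, with 3 lists against 3.

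Bins lie on a fixed grid within a gene, so single positions can be followed between lists. The members had 1335 distinct positions. Of these, 119 were called in all 3 KO+WT lists, and 97 of the 119 (81.5%) were called in no KO list, against 71.3% of 6063 positions in the other genes. Of the 97 positions 25 (25.8%, against 37.8% in the other genes) lay within 2000 nt of the gene end and 1 (1.03%, against 2.03%) lay within 1000 nt of the gene start. A different set of 24 positions, in 21 members, was called in all 3 KO lists. Of these 24, 8 (33.3%) lay within 1000 nt of the start, against 25.3% in the other genes. Only 3 of the 23 positions called in all 9 rescue lists were also called in all KO lists, against 538 of 1961 in the other genes. Distances are along the genome, introns included. In all, 69 of the 1335 positions, in 15 members, overlapped a bin given to another gene on the same strand.

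**Figure D4:**
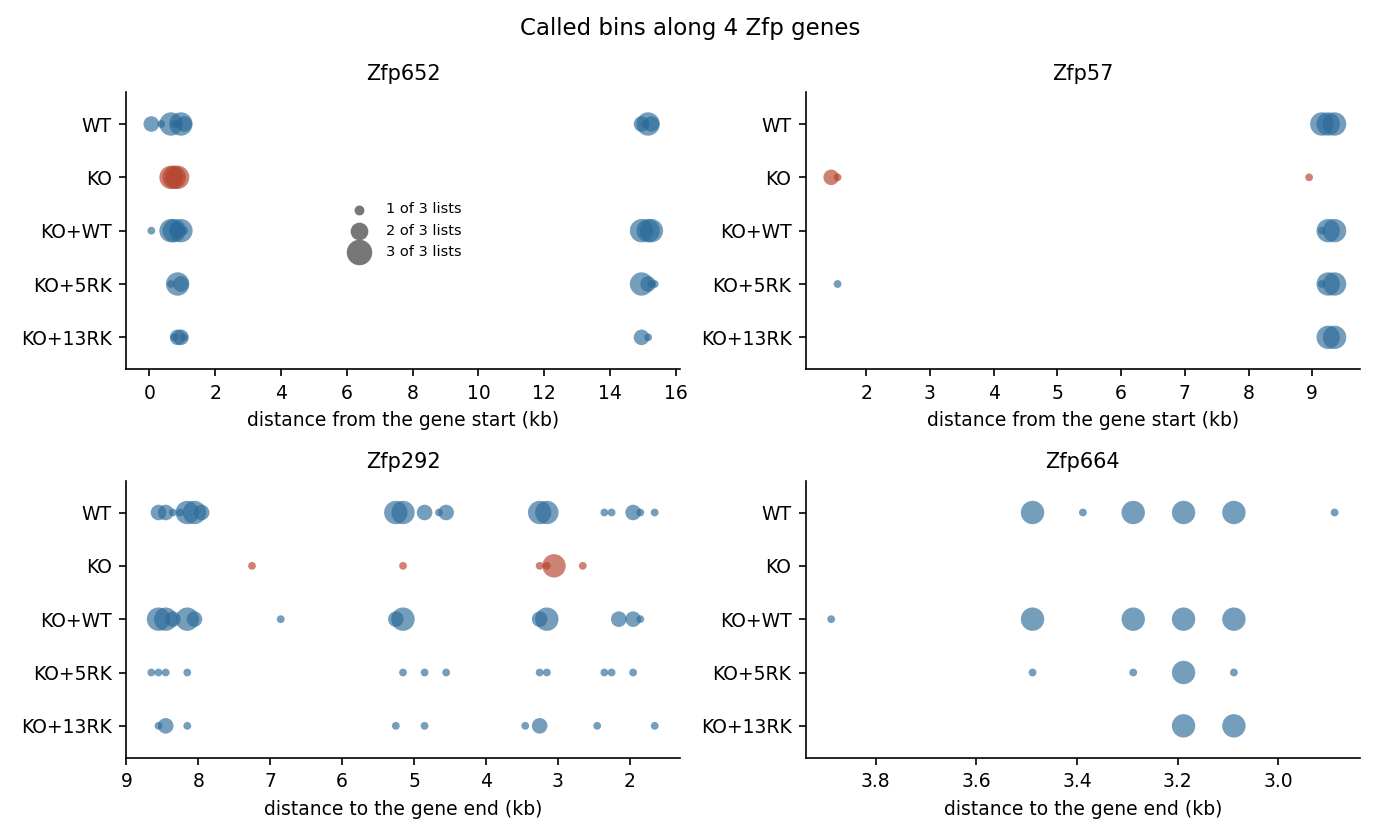
Called bins along Zfp652 and Zfp57 (distance from the gene start, kb) and Zfp292 and Zfp664 (distance to the gene end, kb, with the end to the right); rows are lines, KO in red, and the point is larger where 1, 2 or 3 of the line's lists called the bin. The KO calls of Zfp652 and most of those of Zfp57 lie toward the start, the KO+WT positions near the end of both have no KO call, and Zfp664 has no KO call.

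Zfp652 shows both kinds of position in 1 gene. It had 8, 8 and 6 bins in WT, 3 in each KO list, 8, 10 and 8 in KO+WT, 6, 6 and 3 in KO+5RK and 5 in each KO+13RK list. The 3 KO bins were the same in every KO list, 656.5, 756.5 and 856.5 nt from the start of Zfp652, and these positions were also called in 3, 3 and 2 KO+WT lists. The positions 691.5, 491.5 and 391.5 nt from its end were called in all 3 KO+WT lists and in no KO list. The limma difference of Zfp652 between KO and the rescue lines was -0.80 ± 0.17 (SE), with an adjusted p of 0.00781. With a q of at most 0.005 the difference was 0.16, and at equal list length Zfp652 no longer passed. Some bins listed under Zfp652 lie beyond its RefSeq end, on bins also given to Phospho1.

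Zfp57 was called by KO replicates 2 and 3 at positions with no call in KO+WT or KO+13RK. The positions 315.5 and 215.5 nt from the end of Zfp57 were called in every list but those of KO. The bins that KO replicates 2 and 3 shared lay 1450.5 nt from the start of Zfp57. In Zfp704 the positions 714.5 and 614.5 nt from the start were called in all 3 KO lists, and the position 5760.5 nt from its end in all 3 lists of WT but none of KO. In Zfp292 all 3 KO lists and no other list called the position 3053.5 nt from the end, next to the position 3153.5 nt from the end, which was called in all 3 WT and all 3 KO+WT lists. Zfp281, at 950.5 nt from its start, and Zfp593, at 51.5 nt from its start, also had a position called in all 3 KO lists and no other list. A position that did not move was that of Zfp445, 4769.5 nt from its end, called in all 15 lists, as was the position of Zfp622, 750.5 nt from its start.

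The share of member bins within 500 nt of the gene start was low in every line but KO. It was 5.82% ± 3.76 in KO and 0.349% ± 0.126 in WT (SD, n = 3 in each line). The rescue lines stood at 0.344% ± 0.355 (KO+WT), 0.304% ± 0.27 (KO+5RK) and 0.562% ± 0.55 (KO+13RK). These are small numbers: 2, 7 and 11 bins in the KO lists and 0 to 2 in the others, so the lowest KO list did not exceed the highest other list in number, although it did in share (2.25% against 1.10%). The other genes had far more start bins in every line, 4.95% in WT and 17.2% in KO. With start bins left out of all genes, a choice made after the data were seen, the members still held 1.42% to 1.74% of the remaining bins in KO and at least 1.83% in every other list.

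Near the gene end, within 2000 nt, lay 27.3% of the member bins in WT and 21.3% in KO. For the rescue lines the share was 28.0% (KO+WT), 26.8% (KO+5RK) and 27.9% (KO+13RK). The KO lists (17.7% to 25.8%) overlapped those of WT, KO+WT and KO+13RK but not those of KO+5RK. The other genes differed more between lines, from 35.1% in WT to 15.5% in KO. A member bin lay a median of 7069 nt from the gene end in KO and 3374 nt in KO+WT. For the other genes the medians were 9473.5 nt and 4044.5 nt, so the shift was not particular to the members.

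**Figure D5:**
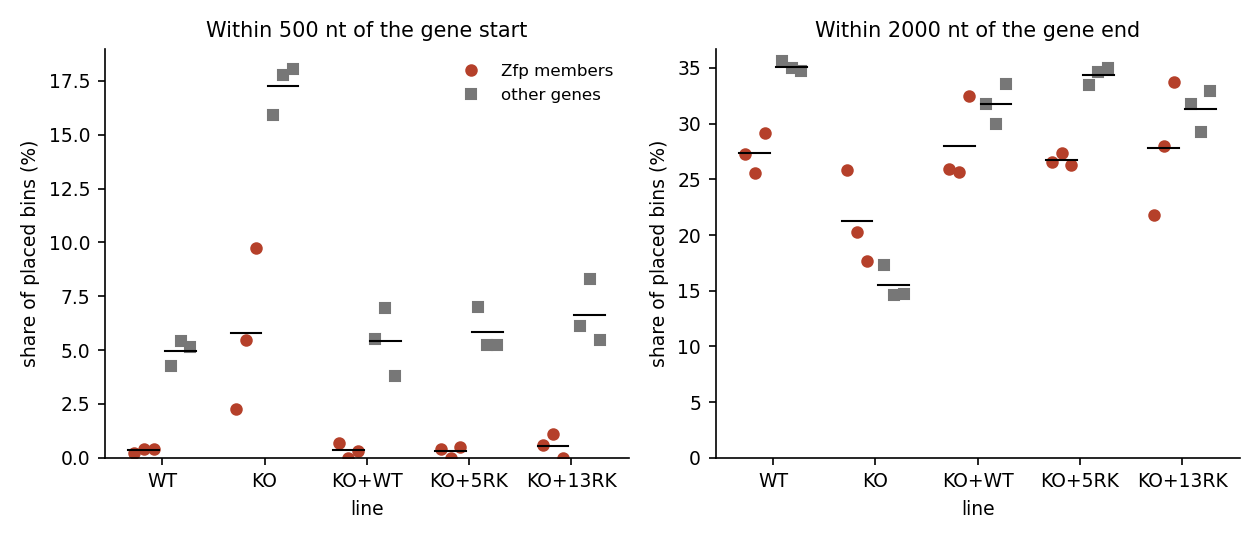
Share of placed bins (%) within 500 nt of the gene start (left) and within 2000 nt of the gene end (right) in each list, for Zfp members (red circles) and the other genes with a WT bin (grey squares); horizontal bars are means of 3 lists. Start bins of the members are at or below 1.10% outside KO and 2.25% to 9.73% in KO, below the other genes of the same list throughout.

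In all, 20 members had a start bin in any list, and 14 of the 20 had it in KO lists only. Windows of 100 letters around annotated starts, the last 50 of them transcribed, were available for 182 members from RefSeq (GRCm38.p6). A called bin reached into such a window in 10 members, in 7 of them in a KO list. In 4 members at least 2 lists of 1 line called the bin; for each of these the window with most letters in the bin is shown, and capitals mark the letters inside the called bin. The bins of Zfp57 and Zfp790 were called in 2 KO lists and no other list. The bin of Zfp932 was called in 2 KO lists, 1 KO+WT list and 1 KO+13RK list, and that of Zfp652 in 2 WT lists, 1 KO+WT list and no KO list.
Zfp57 (chr17:37002475-37002574, + strand): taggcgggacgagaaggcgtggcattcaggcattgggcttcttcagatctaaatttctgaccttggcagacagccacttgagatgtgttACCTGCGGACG
Zfp652 (chr11:95749017-95749116, + strand): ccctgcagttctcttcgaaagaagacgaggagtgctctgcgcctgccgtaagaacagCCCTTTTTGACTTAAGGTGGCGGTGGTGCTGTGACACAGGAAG
Zfp790 (chr7:29816022-29816121, + strand): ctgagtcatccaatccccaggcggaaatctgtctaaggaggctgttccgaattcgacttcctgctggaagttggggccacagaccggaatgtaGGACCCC
Zfp932 (chr5:109996477-109996576, + strand): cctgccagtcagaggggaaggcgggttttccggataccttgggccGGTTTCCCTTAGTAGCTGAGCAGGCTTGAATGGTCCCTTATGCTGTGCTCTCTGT
These windows show where the authors' call begins, not which base was marked. The letters GGAC, the core of the usual METTL3 and METTL14 site, stood on the gene strand in 35.3% of the 221 windows of members and in 32.0% of all 32851 windows, and on the other strand in 44.8% and 31.0%. These shares include the letters that are not transcribed. In the 50 transcribed letters alone, GGAC stood on the gene strand in 19.46% of the windows of members and 18.85% of all windows.

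The rule takes any Zfp gene with 1 call in WT, so its edge is thin. The 65 members called in a single WT list had 0.265 bins per gene and list in the rescue lines and 0.241 in KO. The 72 Zfp genes just outside, with no WT call, had 0.275 and 0.204. The 160 members with calls in 2 or 3 WT lists had 1.49 and 0.594. KO was lower than the rescue lines in all 3 groups, and by most in the last. The groups are split by the WT calls that the rule used. The other 2 groups had few bins in the rescue lines and so little room to fall. The other genes with a WT bin also fell in KO, to 59.7% of the rescue mean. The difference between the groups was not tested.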

How the data were processed

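RNA was immunoprecipitated with an m6A antibody in 15 of the 30 libraries, 3 in each of 5 lines, and the values used were the 15 peak lists, called per replicate. Each row of the authors' deposited lists gives 100 nt of an Ensembl gene (a bin) and its strand, an enrichment score, a p-value and a q-value. Every deposited q-value was under 0.05. The authors' score, whose scale is unknown, served only for ranks within a list. STAR 2.5.3a, kallisto 0.43.0 and the build GRCm38 are named in the submitters' processing notes, without their roles. The peak caller and the read depth behind the deposited bins are not given in the sources used here. Input libraries, protein sequences and the genome sequence were not used here.

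Bins per gene were counted in each list, and symbols came from a gene name table. Distances were measured from the middle of a bin to the ends of the RefSeq gene span of the same build, matched by symbol, for 224 of the 225 members. Differences between lines were tested with limma 3.58.1 (R 4.3.3) on log2(bins per gene + 1), with 5 lines in 1 fit, a trended prior, two-sided p-values and Benjamini-Hochberg adjustment over all 9852 genes with a bin in at least 3 lists. On simulated bins for 9852 genes, 200 with a mean of at least 2 bins were lowered in KO. The test of KO against the rescue lines called 1.5% of those lowered 2-fold, 39.5% of those lowered 4-fold and 73% of those lowered 8-fold. It called 0, 4 and 14 other genes. The test of KO against KO+WT called 0%, 9% and 49% of the lowered genes. The simulated lines did not differ in list length otherwise, and the rates do not cover members with a mean under 2 bins. Sums over the members got no test. Named genes were the members of 4 lists by role, the 8 with most bins in KO+WT, the 6 of smallest p in each direction of each contrast, the 6 with most bins in KO, the 4 with most WT bins and none in KO, and co-repressor genes. Genes named in a count of calls or for a position were chosen after their values were seen. The members and lists were chosen with earlier results of these data known. The contrast between KO+13RK and KO+5RK and the share without start bins were added after the data were seen.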

Additional observations from a re-analysis of the deposited data

How the results depend on the processing

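The direction in which more members differed between KO and the rescue lines, toward fewer bins, was the same under every alternative that made a call, but the counts moved. With a q of at most 0.005, 15 members had fewer bins in KO than in the rescue lines, and 0 had more bins in KO than in KO+WT. With that q, 1 was lower in KO+5RK and 4 were lower in KO+13RK than in KO+WT. At equal list length, 13 were lower and 8 higher against the rescue lines, 12 lower and 8 higher against KO+WT, and 0 lower in KO+13RK. With touching bins merged, 2 were higher against the rescue lines, 1 was higher against KO+WT, and 1 was lower in KO+13RK than in KO+5RK. Testing genes with a bin in at least 6 lists gave 2 higher against the rescue lines, and testing every gene gave 1 higher against KO+WT. Fisher's exact test gave 0 calls in each contrast, since 3 lists against 3 cannot go below a p of 0.1 and 3 against 9 gave a smallest adjusted p of 0.122. With 1 list left out, the counts ranged from 18 to 34 lower and 1 to 3 higher against the rescue lines, 24 to 42 lower and 0 to 2 higher against KO+WT, 0 to 2 lower in KO+5RK and 1 to 6 lower in KO+13RK.

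With the replicate number as a block, 3 members were higher against the rescue lines, 1 was higher against KO+WT and 1 was lower in KO+13RK. Lists of the same number did not deviate together (median correlation -0.00233 over 30 pairs, against 0.00196 for lists of other numbers). With few bins per gene this cannot show whether lists of the same number share a batch, and the labels do not say.

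Of the 32 members called against the rescue lines, 16 kept the call whichever list was left out and 13 kept it at equal list length. The sign reversed for Zfp652 against the rescue lines with a q of at most 0.005 (0.16) and for Zfp644 against KO+WT at equal list length (0.33), and the cause was not tested.

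The share of bins in members in WT was 1.80% with a q of at most 0.005, 1.43% at equal list length, 2.27% with touching bins merged and 2.21% without start bins. In KO it was 1.28% with the stricter q and 1.59% without start bins, and in KO+WT 1.91% at equal list length. With limits of 1000 nt, the share of member bins near the start was 13.3% in KO, 1.67% in WT, and for the rescue lines 2.01% (KO+WT), 1.86% (KO+5RK) and 2.09% (KO+13RK). Near the end it was 9.29% in KO, 12.4% in WT, and 10.6% (KO+WT), 12.4% (KO+5RK) and 10.1% (KO+13RK). The unknown depth limits every missing call.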
